A study of Homo sapiens with 8 samples.

Results

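The genes described are those of MHC class I antigen presentation: the class I heavy chains HLA-B, HLA-C and HLA-E, their light chain B2M, and the peptide loading genes TAP1, TAP2, TAPBP and ERAP1. They were chosen by name, as the rows of the deposited table that carry these 8 symbols. Of the 8, 6 had a row among 4616 genes in all. TAP1 and TAPBP had none and were not analysed here. The study compared WM902B, a human cell line from a primary melanoma labelled BRAFV600E, at passage 18, infected with the hairpin shSCR (scrambled control) or shTINCR (directed at the long non-coding RNA TINCR). All cells, control cells included, carry a hairpin and received cycloheximide, which arrests ribosomes on the mRNA, at 100 µg/ml for 5 min. The 8 libraries were 4 of ribosome-protected fragments and 4 of RNA, with 2 biological replicates for each hairpin and kind of library. A single hairpin per condition is labelled, so an effect of TINCR and one of that hairpin on other RNAs cannot be told apart.

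Class I molecules display peptides from the inside of a cell to cytotoxic T cells. Proteasomes and cytosolic peptidases cut proteins into peptides, the transporter formed by TAP1 and TAP2 carries them into the endoplasmic reticulum (ER), ERAP1 trims them there, and tapasin (TAPBP), calreticulin (CALR), calnexin (CANX) and PDIA3 help a heavy chain paired with B2M to take one up. HLA-B and HLA-C are highly variable heavy chains that present such peptides, whereas HLA-E mainly presents peptides from the signal sequences of other class I chains and is read by receptors of natural killer cells. Melanomas often show reduced class I at the cell surface, which lets them escape T cells. Interferon raises the transcription of most of these genes.

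The measurement was translational efficiency (TE), the ribosome footprints of a gene relative to its mRNA, given as log2. Since this is a ratio within a gene, a change of footprints and mRNA in proportion does not move it, and the table does not split a TE change into footprints and mRNA. Each hairpin had 1 value per gene, with no value per library, so the replicates could not be compared and the depth is unknown. A gene was said to rise or fall where the authors' adjusted p was below 0.05. The table held TE of 7 of 8 melanocyte lineage markers (SOX10, MITF, MLANA, PMEL, TYR, DCT and S100B) and of 0 of 8 leukocyte markers. It also held 1 of 4 endothelial (KDR), 1 of 5 keratinocyte (DSP) and 1 of 5 fibroblast markers (COL1A2). TINCR had 0 rows, so its silencing was not checked. Because the cells were lysed in bulk, a change in all cells and one in part of them cannot be told apart.

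The start codon context is shown first, because ribosomes choose their start there and 3 of the genes share part of it. The sequences are from RefSeq (GRCh38.p14, while the study's build was hg19) and run 5′ to 3′ on the transcript strand, with the first ATG after the annotated transcript start in capitals and 12 bases on either side. They lie at chr6:31357144-31357170 (minus strand) for HLA-B, chr6:31272057-31272083 (minus strand) for HLA-C and chr15:44711535-44711561 (plus strand) for B2M.
HLA-B: tcagacgccgagATGctggtcatggcg
HLA-C: ccagaggccgagATGcgggtcatggcg
B2M: attcgggccgagATGtctcgctccgtg

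In HLA-B and HLA-C this ATG began at base 22 of the annotated transcript and in B2M at base 31, so all 3 have a short leader ahead of it. The 6 bases before the ATG were the same in the 3 genes. The run GCCGAGATG, chosen after these sequences were seen and searched on the transcript strand only, occurred in the first 50 bases of 13 of 35116 RefSeq windows (0.0370%). In the table, 4 genes carried it, these 3 and DUT, the enzyme that removes dUTP. Of those 4, 1 rose (HLA-C) and 0 fell, beside 8.23% of all genes that rose, and their median log2 change was 0.17, beside 0.02 over all genes. With 4 genes, nothing is read from this about the context. Aligned end to end, the first 50 bases of HLA-B and HLA-C were identical at 43 of 50 positions (86.0%), and the 250 bases ahead of the start at 226 of 254 (89.0%). HLA-B and B2M matched at 31 of 56 positions of the alignment of their first 50 bases (55.4%). Of the 6 genes with a row, 5 had a RefSeq window. The windows of TAP2 and ERAP1 held no ATG in the first 50 bases, and HLA-E was not matched. A first base C followed by 4 bases that are each C or T, the start typical of mRNAs under mTORC1 control, was present in 1 of the 2 windows of ERAP1 and in none of those of HLA-B, HLA-C, B2M or TAP2. It was present in 4.07% of all windows.

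HLA-B and HLA-C had the highest TE and the largest changes of the 6 genes. The authors' deposited table gave HLA-C a log2 TE of 0.90 in shSCR and 1.21 in shTINCR cells, a 1.24-fold rise (adjusted p = 0.0153). HLA-B had a change of nearly the same size, from 1.56 to 1.86 (1.23-fold), but did not pass the threshold in the authors' deposited table (adjusted p = 0.0743). HLA-E, B2M, TAP2 and ERAP1 had changes between -0.12 and 0.06 on the log2 scale in the authors' deposited table, and none of them passed. In all, 1 of these 6 genes rose and 0 fell. Over the whole table, TE of 380 of 4616 genes (8.23%) rose and of 377 (8.17%) fell, and a single call among 6 genes is not read as a property of the group. The median log2 change of the 6 genes was 0.05, beside 0.02 over all genes.

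HLA-C is a heavy chain seen by both T cells and the killer cell receptors of natural killer cells. Its log2 change in the authors' deposited table was 0.30, the 564th highest of 4616 (unadjusted p = 0.00142). If that p is read as coming from a normal statistic, it implies a standard error of 0.0954 and a 95% interval from 0.12 to 0.49, or 1.08-fold to 1.41-fold. The size of its rise is thus known only loosely, and its call was lost at a threshold of 0.01 and with the Benjamini-Yekutieli or Bonferroni adjustment. Its TE stood at percentile 88.1 of all genes in shSCR cells and at 92.2 in shTINCR cells in the authors' deposited table.

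HLA-B, the most variable of the heavy chains, had the highest TE of the 6 genes. In shSCR cells it ranked 135th of 4616 genes and lay at percentile 97.1, and in shTINCR cells at 98.0, in the authors' deposited table. Its log2 change was 0.30 with an unadjusted p of 0.0141 in the authors' deposited table. The implied standard error was 0.123 and the implied 95% interval 0.06 to 0.54, wider than that of HLA-C. The table holds 2 versions of the authors' estimate and takes the larger p of both. In the second version alone, HLA-B passed (adjusted p = 0.0189), as did HLA-C (adjusted p = 0.00377), when both were adjusted over all rows of the authors' deposited table. In the second version 509 genes (11.0%) rose. Among the 6 genes HLA-B was the one just outside the threshold and HLA-C the one just inside it, with the same change to 2 decimals, so the different calls do not show that these heavy chains responded differently. The difference between them was not tested.

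HLA-E was the only one of the 6 genes with a TE below the median gene. In the authors' deposited table its log2 TE was -0.24 in shSCR and -0.31 in shTINCR cells, a change of -0.08 that did not pass (adjusted p = 0.62). The implied 95% interval ran from -0.25 to 0.10. Its upper end lies below the changes of HLA-B and HLA-C as estimated, and its interval overlaps that of HLA-B but not that of HLA-C. The differences between these genes were not tested.

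**Figure D1:**
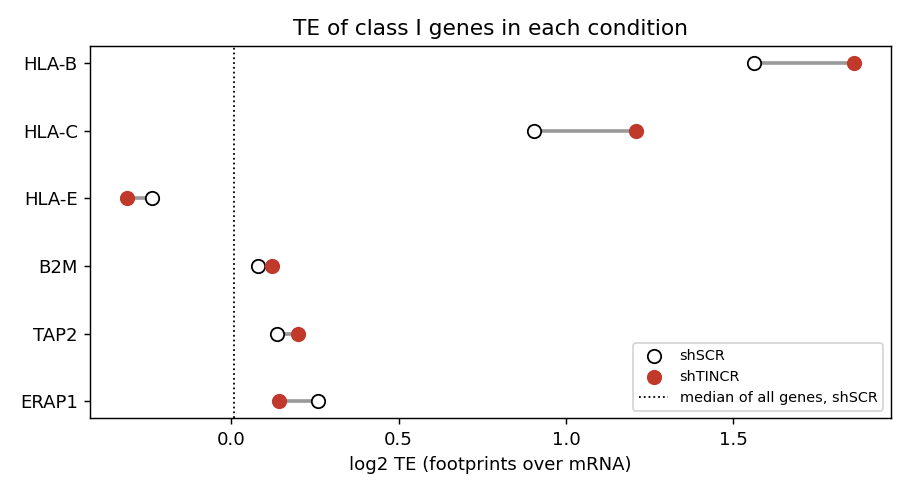
TE of the class I genes. Open circles give the log2 TE in shSCR cells and filled circles that in shTINCR cells, 1 value per condition, with a dotted line at the median of all genes in shSCR cells (0.0078). HLA-B and HLA-C lie to the right and move further right, whereas HLA-E, B2M, TAP2 and ERAP1 lie near the median and move little.

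Reads can be shared between HLA-B, HLA-C and other class I genes of like sequence, and reads from variable alleles can fail to map to a reference. The sources used here do not say how the authors treated such reads, so the values of the heavy chains may not be independent of each other and each is uncertain. The part of such reads in these changes was not tested.

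B2M, the invariant light chain without which most heavy chains do not reach the cell surface, had a middling TE. The authors' deposited table held a log2 TE of 0.08 for shSCR and 0.12 for shTINCR cells, a change of 0.04 (adjusted p = 0.793). The implied 95% interval was -0.14 to 0.22, or 0.911-fold to 1.17-fold. A rise the size of that of HLA-C (0.30) lies outside this interval. B2M is not a close paralog of the heavy chains, and the limit named for their reads does not extend to it.

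TAP2, a subunit of the peptide transporter, had a log2 TE of 0.14 and 0.20 for shSCR and shTINCR cells in the authors' deposited table, a change of 0.06 (adjusted p = 0.782). ERAP1, the ER aminopeptidase that trims peptides to the length class I binds, had 0.26 and 0.14 in the authors' deposited table, a change of -0.12 (adjusted p = 0.643). Their implied 95% intervals were -0.19 to 0.32 and -0.41 to 0.18. Both intervals are wider than that of B2M. Like those of B2M and HLA-E, they include rises as well as falls, so for all of these genes the direction is not known.

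In shSCR cells the order of TE from the highest was HLA-B, HLA-C, ERAP1, TAP2, B2M and HLA-E. In shTINCR cells ERAP1 and TAP2 changed places and the rest of the order stayed. On the linear scale, the TE of HLA-B was 2.95 in shSCR cells and that of HLA-E 0.848 in the authors' deposited table. The values from ERAP1 to B2M lay between 0.08 and 0.26 on the log2 scale. As the levels come without an error, which neighbours in this order differ beyond replicate spread could not be determined.

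**Figure D2:**
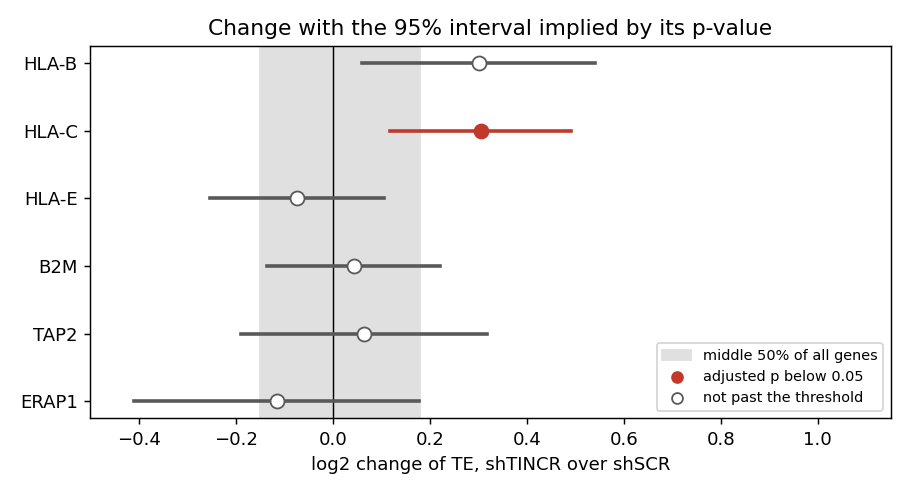
Log2 change of TE, shTINCR over shSCR, with the 95% interval implied by the authors' p-value. Filled red points passed at an adjusted p below 0.05 and open points did not. The grey band holds the middle 50% of all genes (-0.15 to 0.18). The intervals of HLA-B and HLA-C lie above 0, and those of HLA-E, B2M, TAP2 and ERAP1 include it.

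Genes of like TE were used as a second frame. When all genes were divided into 10 bins by TE in shSCR cells, HLA-C fell into bin 9, where the middle 50% of changes ran from -0.15 to 0.15 and the 95th percentile was 0.39. Its change lay between these bounds. HLA-B fell into bin 10, with a 95th percentile of 0.42 and an upper quartile of 0.23, and also lay between them. HLA-E, B2M, TAP2 and ERAP1 lay within the middle 50% of bins 4, 6, 6 and 7. Of the genes in bins 9 and 10, 6.07% and 8.01% rose.

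**Figure D3:**
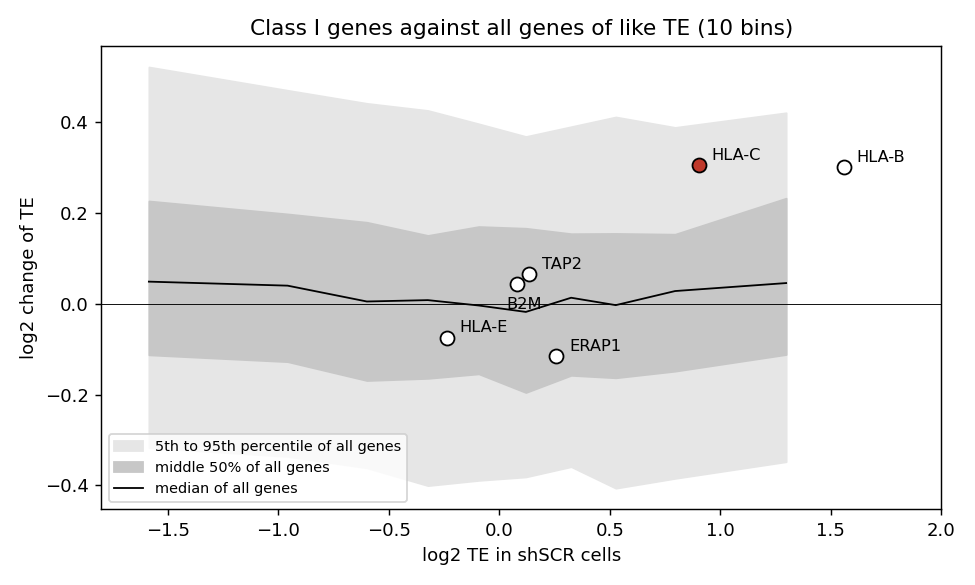
Log2 change of TE against log2 TE in shSCR cells. Bands and line give the 5th to 95th percentile, the middle 50% and the median of all genes in 10 bins of TE, drawn at each bin's median. Filled points rose. HLA-C lies above the dark band, and HLA-E, B2M, TAP2 and ERAP1 lie inside it. HLA-B lies to the right of the bands, which end at the median of bin 10 (log2 TE 1.30). Its change is above the upper quartile of that bin (0.23).

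Beside the 6 genes, 9 further lists of 142 genes were described, of which 71 had a row. They cover class I steps, but also class II genes, other surface ligands and interferon-stimulated genes. Of these 71, 5 rose (7.04%) and 4 fell (5.63%), beside the shares of the whole table (8.23% and 8.17%). Their median log2 change was 0.03. Of the genes that rose, HLA-DRB5, PVR and CD276 came from the class II and surface ligand lists, and TMED10 and NPLOC4 from class I export and turnover. The genes that fell (BLMH, CANX, UFD1 and BCAP29) came from lists of class I steps. The lists differ in size, and so few calls are not read as a difference between them, which was not tested.

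At the loading step, 0 of 7 measured chaperones and glycan-processing enzymes rose and 1 fell (14.3%), beside 8.23% and 8.17% of all genes. Their median log2 change was 0.03. CANX, the membrane-bound lectin chaperone that holds new heavy chains before they meet B2M, had a log2 TE of -0.47 in shSCR and -0.71 in shTINCR cells in the authors' deposited table and thus fell by 0.25 (adjusted p = 0.025). CALR and PDIA3, which form the loading complex with tapasin and were named after their values were seen, had changes of 0.03 and -0.13 and did not pass in the authors' deposited table (adjusted p = 0.84 and 0.399). Both had a high TE, with a log2 TE of 1.28 and 1.58 in shSCR cells in the authors' deposited table. Within the lectin chaperones, the call thus belonged to CANX and not to CALR, though their difference was not tested.

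Peptide supply was represented by peptidases and proteasome genes. Of 9 measured cytosolic and ER peptidases 8 had a negative change, 1 of them past the threshold, with a median of -0.18. Over all genes, 47.0% of changes were negative and 8.17% of genes fell. BLMH, a cytosolic cysteine peptidase that can trim antigenic peptides, had a log2 TE of 0.48 and -0.15 in the authors' deposited table and fell by 0.63 (adjusted p = 0.0014). This was the 26th lowest change of 4616. The exception, named after its value was seen, was the signal peptide peptidase HM13, which takes part in releasing the peptides shown by HLA-E, for which the authors' deposited table gave 0.0096 (adjusted p = 0.958). ERAP1 had a negative change as well, so that among 10 measured peptidases 9 were negative and 1 passed. Of 5 measured genes of the immunoproteasome and proteasome activator list 0 rose and 0 fell (median -0.16), and 1 reached an unadjusted p below 0.05, the activator PSME3, with a change of 0.27 and an adjusted p of 0.137 in the authors' deposited table. The immunoproteasome subunits PSMB8, PSMB9 and PSMB10 had 0 rows.

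Of 17 measured genes of export from the ER and turnover 2 rose and 2 fell (11.8% each), with a median of -0.03. Over all genes 8.23% rose and 8.17% fell, and so few calls are not read as a property of this list. TMED10, a cargo receptor of vesicles between ER and Golgi, started from a low log2 TE of -1.22 and rose by 0.35 per the authors' deposited table (adjusted p = 0.0149). BCAP29, a relative of the class I export receptor BCAP31, fell by 0.31 (adjusted p = 0.0414, the authors' deposited table). NPLOC4 and UFD1 are the partners with which the ATPase VCP pulls misfolded proteins, heavy chains among them, out of the ER. In the authors' deposited table NPLOC4 rose by 0.30 (adjusted p = 0.0461) whereas UFD1 fell by 0.33 (adjusted p = 0.0255). These subunits of 1 complex thus had opposite changes, each past the threshold.

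Regulators of class I transcription were represented by a further list. Of the 6 genes of transcription and interferon signalling described here, STAT2, STAT3, JAK1, IFNGR1, IFNGR2 and RELA, 0 rose and 0 fell, and 0 reached an unadjusted p below 0.05 with the authors' test. Over all genes, 8.23% rose and 8.17% fell. RELA, the NF-κB subunit that binds class I promoters, had the smallest p, for which the authors' deposited table gave a change of 0.38 (adjusted p = 0.176). With the second version of the p-value in the authors' deposited table it passed (adjusted p = 0.0391), and with the first it did not (adjusted p = 0.168). NLRC5, IRF1 and IRF2 had 0 rows.

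The class II genes, which present peptides from endocytosed proteins to helper T cells and which many melanoma cells express, had high TE. All 7 measured class II chains were above the median TE of all genes, with a median log2 TE of 1.70 in shSCR cells against 0.90 for HLA-B, HLA-C and HLA-E. Of 11 measured genes of the class II list 1 rose (9.09%) and 0 fell, beside 8.23% and 8.17% of all genes. Their median change was 0.13. In the authors' deposited table, 4 of them rose with the second version of the p-value (HLA-DRB5, HLA-DPB1, HLA-DQB1 and CD74), beside 11.0% of all genes. With the first version only HLA-DRB5 and CD74 rose. HLA-DRB5 had a log2 TE of 1.75 in shSCR and 2.40 in shTINCR cells in the authors' deposited table and rose by 0.65, or 1.57-fold (adjusted p = 0.0023). Its close paralog HLA-DRB1, which was singled out with its value known, had -0.11 in the authors' deposited table (adjusted p = 0.512). Reads can be shared between these genes as among the class I chains, and the part of this in their values was not tested. CD74, the invariant chain that guides class II molecules to endosomes, lay just outside the threshold in the authors' deposited table, at 0.26 (adjusted p = 0.0526; 0.0494 with the first version and 0.00414 with the second), and had the 26th highest TE of 4616 genes in shSCR cells. CD74 too was named after its values were seen.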

How the data were processed

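Ribosome-protected fragments and RNA of WM902B cells were sequenced by the authors, who deposited 1 table of their comparison, shTINCR over shSCR. Per the file headers, its log2 columns are the log2 TE of each hairpin and the log2 change in 2 versions with a final one, and the deposited p-value columns give a p-value per version, a final and an adjusted p-value. The RNA is titled as total RNA and labelled polyA RNA. Per the submitters' processing notes, the tools, whose roles are not given, were DESeq 1.10.1, HTSeq 0.5.3p9, TopHat2 2.0.8, Bowtie2 2.1.0, CASAVA 1.9 and SAMtools 0.1.18, and the build was hg19. For the tool behind the TE columns, the filter and the counted region, nothing is given in the sources used here.

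In the values, the final p was the larger of both versions in all 4616 rows, and the adjusted p was Benjamini-Hochberg over all rows. No column belonged to a library, so no test was fitted here. Folds are 2 to the power of the log2 change. The implied standard error is the change divided by the normal quantile of its two-sided p, and ignores how the authors' statistic is truly distributed. Named genes are the 8 genes by rule and, from each other list, up to 6 past the threshold or else the 1 with the smallest p. The genes nearest to a called gene in TE, part of the rule, and some genes of the lists are not reported here and not counted in the lists. Genes and lists were chosen with earlier results of these data known. Python 3.11.15, pandas 2.3.3, numpy 2.4.6, scipy 1.17.1, Biopython 1.88 (global alignment: match 1, mismatch -1, gap opening -2, gap extension -1) and matplotlib 3.10.9 were used. The adjustments and implied errors were tested on simulated data.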

Additional observations from a re-analysis of the deposited data

How the results depend on the processing

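Depth and replicate spread are unknown, and no setting without a replicate could be run. No paired analysis was possible because the table has no column per library. Of the class I genes, 1 rose as deposited. With the second version of the estimate 2 rose (HLA-C and HLA-B), and the change of HLA-B in the authors' deposited table was then 0.30 (adjusted p = 0.0189). At a threshold of 0.1 also 2 rose. At 0.01, with Benjamini-Yekutieli and with Bonferroni, 0 rose. Without the HLA class I heavy chains 0 rose as well, which was fixed in advance, since HLA-C was the only gene called. The count that fell was 0 under all 8 alternatives. Of the 71 measured genes of the other lists, 5 rose as deposited, against 7 with the first version and 10 with the second. At 0.1 the count was 7, at 0.01 it was 2, with Benjamini-Yekutieli 2 and with Bonferroni 0. The 4 that fell became 5 with the first version and 5 at 0.1, but 1 at 0.01, 1 with Benjamini-Yekutieli and 0 with Bonferroni. They became 3 when a log2 change of at least 0.25 was required as well, where CANX (-0.248 before rounding) lost its call. The stricter settings call fewer genes by construction, and the threshold of 0.1 calls more. With the second version 11.0% of all genes rose. For the other alternatives the share of all genes is not given here, so these counts have no background beside them. The sign of the change of each of the 6 class I genes was the same in both versions, as the difference of log2 TE, and when centred on the median of all genes. No sign could have differed, so this says nothing about how firm the signs are. Over all genes these forms differed by at most 0.0079 and 0.0087, and the median was 0.016. The smallest change of the 6 genes was 0.043 (B2M).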

Other observations

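Other surface proteins that T cells and natural killer cells read were listed beside class I. Of 21 listed ligands 12 had no row. Of 9 measured ligands 2 rose (22.2%) and 0 fell, and 8 had a positive change, with a median of 0.12. Over all genes, 8.23% rose, 8.17% fell and 52.5% had a positive change. So few calls are not read as a property of this list. PVR (CD155), a ligand of the receptors TIGIT and DNAM-1, had a low log2 TE of -1.27 in shSCR and -0.76 in shTINCR cells in the authors' deposited table and rose 1.42-fold (adjusted p = 0.0027). CD276 (B7-H3), an immune checkpoint ligand, had -0.30 and 0.24 in the authors' deposited table and rose 1.45-fold (adjusted p = 0.0107). CD274, which encodes PD-L1, had 0 rows and was not analysed here.

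Of 7 measured interferon-stimulated genes 0 rose and 0 fell, beside 8.23% and 8.17% of all genes. A further 19 of the 26 listed had no row, so the lack of calls is not read as a result about interferon-stimulated genes in general. In this list 0 reached an unadjusted p below 0.05 with the authors' test, and the median change was -0.05. The smallest p belonged to SAMHD1, a nucleotide hydrolase that restricts viruses, which the authors' deposited table lists at -0.25 (adjusted p = 0.189).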
